A study of Schizosaccharomyces pombe with 15 samples.

Results

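Cap analysis of gene expression (CAGE) reads the capped 5′ ends of RNA. Each tag read gives a position at which transcription began, and neighbouring positions are joined into start-site clusters. The heat-induced start-site clusters of the fission yeast Schizosaccharomyces pombe are those that reached a mean of at least 2 CPM (a cluster's tags divided by all cluster tags of the library, times 1000000) over the 3 heat-shocked libraries and at least 4 times their mean over the 3 unstressed libraries in the same rich medium. They numbered 590 of 13003 clusters, or 4.54%. Because the clusters were chosen by these measured values, the levels in heat and in the unstressed rich medium are descriptions, with no test, and nothing is read from the size of the heat response itself.

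All 15 libraries came from the wild-type strain h-S 972, grown as triplicate liquid cultures at 30 °C, with 3 libraries in each of 5 groups. The YES group was unstressed in rich yeast-extract medium, and the EMM group was unstressed in defined minimal medium. The heat group was held at 39 °C for 15 min, and the H2O2 group received 0.5 mM hydrogen peroxide for 15 min at 30 °C. For these stresses the labels write both YES and YEL as the medium. The nitrogen-starved group was filtered out of minimal medium and kept for 16 h in minimal medium without ammonium chloride, so its control was the EMM group. Library totals ran from 9687729 to 21822930 tags, at which 3 tags equal 0.310 to 0.138 CPM.

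In fission yeast, heat damages proteins and activates the heat shock factor Hsf1, which binds inverted repeats of the unit GAA and drives genes for chaperones, the proteins that refold or dissolve damaged proteins. Heat and H2O2 also activate the stress kinase Sty1, which acts through the transcription factor Atf1 and its binding sequence TGACGT on a shared set of core stress genes. Start sites can also lie inside genes, on either strand, and the RNA made from them need not encode the whole protein. A start site usually falls on a purine that follows a pyrimidine, the pyrimidine-purine step.

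Sequences just upstream of 8 of the clusters come first, as examples that each hold a motif counted below. Each run covers the 150 bases before the most used position of the cluster (its peak) and 10 bases from the peak on, read on the cluster's own strand from the RefSeq assembly ASM294v3. The first 5 carry GAANNTTC, a pair of facing GAA units, and the capitals mark it.
cut3, coding exon, minus strand, II:1003101-1003260: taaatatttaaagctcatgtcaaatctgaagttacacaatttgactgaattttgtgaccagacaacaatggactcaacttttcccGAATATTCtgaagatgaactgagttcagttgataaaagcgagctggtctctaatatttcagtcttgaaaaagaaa
SPAC22A12.14c, coding exon, minus strand, I:1181891-1182050: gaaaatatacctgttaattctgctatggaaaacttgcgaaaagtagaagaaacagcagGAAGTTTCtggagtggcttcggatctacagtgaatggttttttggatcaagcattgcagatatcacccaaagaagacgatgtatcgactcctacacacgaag
ubx3, coding exon, plus strand, I:1654384-1654543: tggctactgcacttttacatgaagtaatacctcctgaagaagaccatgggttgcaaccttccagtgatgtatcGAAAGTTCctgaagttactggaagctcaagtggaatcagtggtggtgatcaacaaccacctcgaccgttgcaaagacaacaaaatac
ssa1, annotated mRNA start, minus strand, I:2297955-2298114: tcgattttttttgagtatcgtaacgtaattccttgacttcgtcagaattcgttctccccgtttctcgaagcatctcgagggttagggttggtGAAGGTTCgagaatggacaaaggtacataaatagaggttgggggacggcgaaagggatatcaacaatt
SPNCRNA.1289, start of a noncoding RNA, plus strand, III:2331183-2331342: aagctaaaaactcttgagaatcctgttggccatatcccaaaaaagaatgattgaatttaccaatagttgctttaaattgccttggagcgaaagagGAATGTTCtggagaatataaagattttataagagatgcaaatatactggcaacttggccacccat
The motif begins 65, 92, 77, 58 and 55 bases before the peak in this order. The cut3, SPAC22A12.14c and ubx3 peaks lie in protein-coding sequence.

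The next 3 runs carry TGACGT, again in capitals, which in cds1 and smp4 is part of the palindrome TGACGTCA. Of the 590 clusters, 13.9% had TGACGT on either strand from 250 bases before to 50 after the peak, against 6.15% of all clusters.
cds1, coding exon, minus strand, III:740644-740803: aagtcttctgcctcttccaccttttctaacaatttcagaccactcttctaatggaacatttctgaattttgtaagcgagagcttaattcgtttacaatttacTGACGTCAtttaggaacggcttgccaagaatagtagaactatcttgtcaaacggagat
ctt1, annotated mRNA start, minus strand, III:58824-58983: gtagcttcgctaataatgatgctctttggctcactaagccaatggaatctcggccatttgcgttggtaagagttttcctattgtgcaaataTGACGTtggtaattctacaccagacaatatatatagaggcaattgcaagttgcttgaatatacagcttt
smp4, annotated mRNA start, plus strand, III:955080-955239: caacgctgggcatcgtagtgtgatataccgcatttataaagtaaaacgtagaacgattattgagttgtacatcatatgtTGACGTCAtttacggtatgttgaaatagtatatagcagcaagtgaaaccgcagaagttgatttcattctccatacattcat
The motif begins 48, 59 and 71 bases before the peak of cds1, ctt1 and smp4. A match describes the letters and is not a bound site.

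The heat-induced clusters held 12.04%, 12.6% and 11.8% of all cluster tags in heat libraries 1 to 3, against 1.11%, 1.10% and 1.16% in YES. They held 3.66% to 3.91% after H2O2, 2.21% to 2.56% in nitrogen starvation and 0.830% to 0.875% in EMM. In RNA from whole cultures, fewer cells using a start and less RNA per cell cannot be told apart. The median cluster stood at 7.42 CPM in heat, with quartiles of 3.53 and 26.5, and at 0.653 CPM in YES. The median ratio of heat to YES was 10.5, with quartiles of 6.34 and 21.7. Tags were concentrated in few clusters: 80 clusters reached 100 CPM in heat, 335 stayed under 10 CPM, and 8 clusters held 52.1% of the heat tags of all 590. In YES, 89 clusters had at most 3 tags in each library and 9 of them had none. All 3 heat libraries lay above all 3 YES libraries in 588 of the 590 clusters, a separation found in 18.3% of all clusters. The choice of clusters largely fixes that count.

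**Figure D1:**
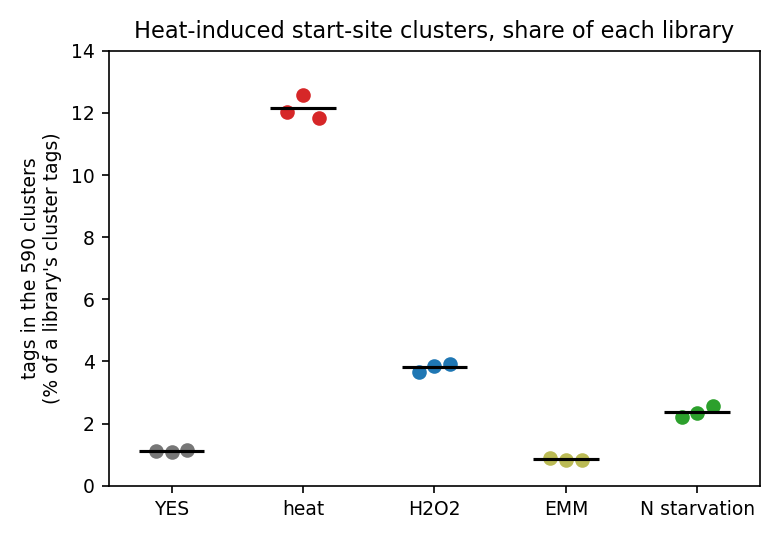
Tags in the 590 heat-induced clusters as a percentage of each library's cluster tags, with 1 point per library and a line at the mean of the 3 libraries of a group. The heat libraries lie at 11.8% to 12.6%, H2O2 at 3.66% to 3.91%, nitrogen starvation at 2.21% to 2.56%, and the unstressed YES and EMM libraries at 1.16% or less.

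At the fold limit, a weaker start of the stress kinase gene srk1 was just inside, at 30.4 CPM in heat and 7.46 in YES (ratio 4.08). A cluster in SPAC29A4.22 was just outside, at 4.44 and 1.11 CPM (ratio 3.995). At the level limit, a cluster of dcn1 was inside at 2.003 CPM and a weaker start of ssa1 was outside at 1.99 CPM.

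By the feature under the peak, 111 clusters lay at an annotated mRNA 5′ end and 82 at a noncoding RNA's 5′ end, on the same strand and no more than 100 bp away. In coding exons lay 143 clusters, and in the body of noncoding RNAs or pseudogenes 125. The others were intergenic (48), antisense to a coding gene (42), in a 5′ UTR (19), a 3′ UTR (14) or an intron (6). mRNA starts made up 18.8% of the heat-induced clusters against 35.7% of all clusters, and coding exons 24.2% against 20.2%. The 111 mRNA starts carried 91.9% of the heat tags of the 590 clusters, at a median of 115 CPM, while the medians of the other classes lay between 5.10 and 12.8 CPM. By count the heat-induced clusters were thus mostly weak starts away from annotated mRNA 5′ ends, and by tags mostly mRNA starts.

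Of the 590 clusters, 505 belonged to the authors' gene units, in 440 genes, and 246 of them were the most used cluster of their gene. The small heat shock protein gene hsp16, the Hsp90 co-chaperone gene aha1 and the noncoding RNA SPNCRNA.1542 held 4 heat-induced clusters each, the most in any gene. The hsp16 clusters differed widely in level. Its mRNA start stood at 3807, 5161 and 3675 CPM in heat and 77.7, 58.6 and 67.7 in YES, while the other 3 had means of 2.28, 6.95 and 7.08 CPM in heat. Merged at 300 bp on either strand, the 590 clusters formed 486 loci, of which 90 held at least 2 clusters. Clusters of a locus are not independent of each other.

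Of the 590 clusters, the 8 highest in heat were all mRNA starts. The highest of them was rtc3, at 13821, 14866 and 11840 CPM in heat libraries 1 to 3 and at 472, 451 and 534 CPM in YES. The gene gpd1, for a glycerol-3-phosphate dehydrogenase of glycerol synthesis, followed at 12138, 7235 and 10153 CPM, against 2090, 2102 and 1696 in YES. In both, every heat library lay above every YES library, and gpd1 was lowest in heat library 2.
The protein disaggregase gene hsp104 stood at 8650, 6792 and 10214 CPM in heat against 343, 276 and 241 in YES. The Hsp70 chaperone gene ssa1 stood at 7114, 6939 and 8098 CPM in heat against 210, 157 and 160 in YES. The groups did not overlap for either chaperone, and heat library 2 was the lowest of the 3 for both.
The other 4 were SPBC11C11.06c (mean 6762 CPM in heat, 321 in YES), the transcriptional co-activator gene mbf1 (5978 and 1253), rds1 (5967 and 335) and smp4 (5332 and 149). The 8 clusters differed in starvation. rds1 was higher than in EMM by a log2 value of 0.93 ± 0.20 (edgeR adjusted p = 0.000462). SPBC11C11.06c was higher too, by 0.80 ± 0.20 (edgeR adjusted p = 0.00186), while gpd1 and smp4 did not pass (edgeR adjusted p = 0.823 and 0.627). rtc3 held 3766 to 3904 CPM after H2O2 and 140 to 183 CPM in nitrogen starvation against 244 to 302 in EMM. mbf1 held 1872 to 1955 CPM after H2O2 against 1194 to 1312 in YES, and 211 to 293 CPM in starvation against 838 to 1036 in EMM. rtc3 and mbf1 both had H2O2 libraries above YES and starved libraries below EMM, with no overlap.

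**Figure D2:**
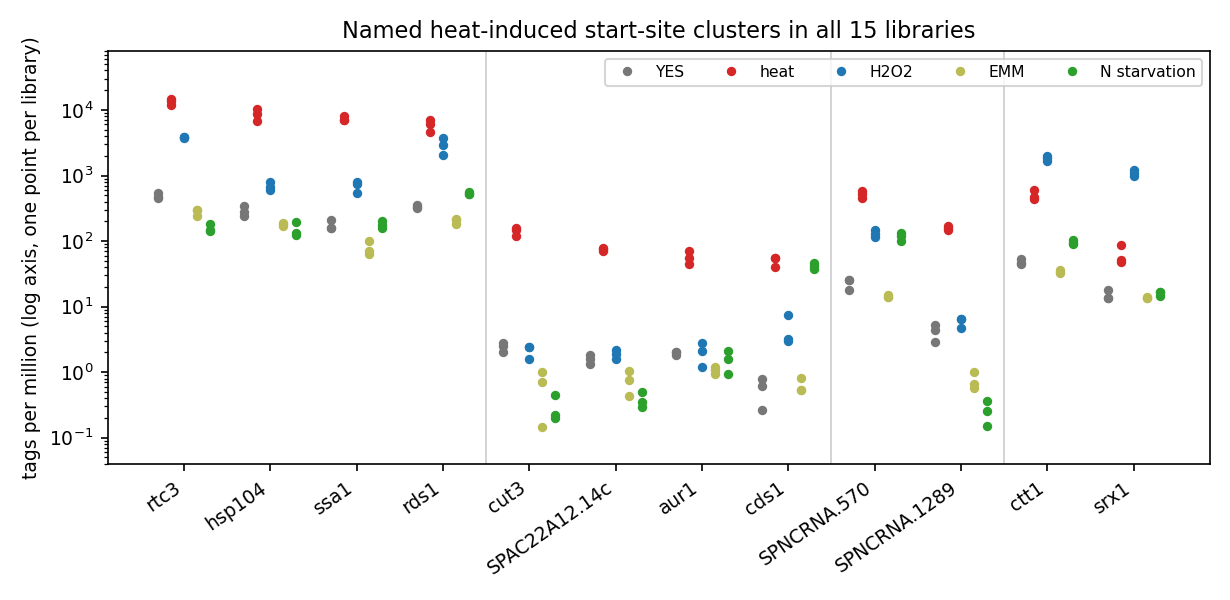
Level of 12 heat-induced clusters in all 15 libraries, in CPM on a log axis, with 1 point per library and colours for the groups. The clusters are 4 mRNA starts with high heat levels, 4 coding-exon starts, 2 noncoding RNA starts, and the catalase and sulfiredoxin genes ctt1 and srx1, whose H2O2 libraries lie above their heat libraries.

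The heat-induced clusters in coding exons were of several kinds. In 13 of the 143 the cluster was itself the gene's most used start. In 22 the gene's most used start was heat-induced as well, and in 108 it was not. In the 108, the peak lay on a pyrimidine-purine step in 92.6%, beside 88.0% of all 590 and 85.1% of all 13003 clusters, and GAANNTTC was present in 49.1%. In the 22 inside heat-induced genes, the step was at the peak of 13.6% (3 of 22) and GAANNTTC was present in 9.09% (2 of 22). Across all 2628 coding-exon clusters the step lay at 48.1%. Over the 22 and the 108 together, without the 13, the ratio of heat to YES at the gene's most used start had a median of 1.00. The quartiles were 0.729 and 1.68.

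The gene cut3 codes for a condensin subunit that compacts chromosomes. Its internal cluster, with a peak 3413 bp from that of the gene's main start, held 146, 121 and 156 CPM in heat and 2.48, 2.81 and 2.01 CPM in YES. The main start held 33.0, 35.6 and 42.3 CPM in heat and 47.0, 46.2 and 59.1 CPM in YES, so every heat library was below every YES library there while the internal cluster was above. The internal start's share of the gene's tags was 4.53% in YES and 78.4% in heat.
In SPAC22A12.14c, which codes for a BSD domain protein, the share was 4.15% in YES and 78.8% in heat at a start 564 bp from the main one. That start held 79.3, 75.5 and 70.5 CPM in heat and 1.86, 1.32 and 1.59 CPM in YES, and the main start had 14.8 ± 2.20 CPM in heat and 37.0 ± 5.66 in YES (SD, n = 3). In aur1, the gene of inositol phosphorylceramide synthase, an enzyme of sphingolipid synthesis, an internal start held 6.61% of the gene's tags in YES and 80.1% in heat. Its levels were 44.9, 71.5 and 55.9 CPM in heat and 1.86, 2.02 and 2.01 CPM in YES.
These 3 genes were picked for the largest gains of share, and had most of their tags at an internal start in heat and at another start in YES. Among 263 heat-induced clusters in genes with at least 10 CPM in both groups, 67 gained at least 20 percentage points of their gene's tags, and 30 went from under to over 50%. The gains use the heat and YES values that chose the clusters, so they are descriptions. Gains were not counted over all clusters.

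The checkpoint kinase gene cds1, which guards stalled DNA replication, had the largest ratio of heat to YES, 90.1, among clusters whose YES mean was above 3 tags in the smallest YES library. This coding-exon cluster held 55.3, 40.3 and 55.4 CPM in heat and 0.619, 0.264 and 0.794 CPM in YES. Its share of the gene's tags was 3.32% in YES and 67.7% in heat, while the main start 685 bp away held 20.9 ± 3.48 CPM in heat and 15.1 ± 3.23 in YES (SD, n = 3). In nitrogen starvation the same internal start held 45.7, 41.6 and 36.9 CPM against 0.530, 0.825 and 0.531 in EMM, without overlap.
The strongest coding-exon cluster in heat was in ubx3, which codes for a UBX domain protein, at 346, 383 and 346 CPM in heat and 39.0, 33.6 and 36.6 CPM in YES. In mug135 a start inside the coding sequence held 10.3, 12.9 and 9.91 CPM in heat and at most 0.0879 CPM in any YES library. It held 68.7% of the gene's tags in heat, and the main start was at 5.00 ± 0.672 CPM in heat and 8.31 ± 0.670 in YES (SD, n = 3).

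In fus1, a formin gene that acts in cell fusion during mating, 2 clusters were heat-induced and their order differed between stresses. The cluster in the coding exon held 50.5, 41.3 and 51.8 CPM in heat, 2.89, 3.17 and 2.54 in YES, and 2.17 to 3.0 CPM in nitrogen starvation. The cluster in the 5′ UTR held 2.32, 1.46 and 2.35 CPM in heat, 0.310, 0.352 and 0.159 in YES, and 19.6, 20.7 and 26.4 CPM in nitrogen starvation. The coding-exon start was the higher of the pair in every heat library and the UTR start the higher in every starved library.

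Of the 42 clusters antisense to a coding gene, 40 had a matched gene on the other strand, and 12 of those genes had a heat-induced main start. The strongest was antisense to hsp90, the gene of the Hsp90 chaperone, at 75.7, 83.8 and 52.8 CPM in heat and 13.1, 16.2 and 17.6 in YES. The hsp90 start itself held 14318, 10294 and 9347 CPM in heat and 3532, 4688 and 4510 in YES, a ratio of 2.67, under the limit of 4. The pyrimidine-purine step lay at 61.9% of the antisense clusters, against 79.5% of all 697 antisense clusters. It lay at 41.7% of the 12 whose gene had a heat-induced main start and at 70% of the other heat-induced ones.
A cluster antisense to knh3 held 46.9, 108 and 32.6 CPM in heat and 7.20 to 8.98 in YES. The 3′ UTR cluster of SPAC343.20 held 33.9, 72.6 and 22.9 CPM in heat and 3.28 to 3.72 in YES. Heat library 2 was the highest for both. Neither of these peaks, nor the one antisense to hsp90, lay on the pyrimidine-purine step. The SPAC343.20 cluster overlaps the span of the rds1 cluster on the other strand.

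Noncoding RNAs supplied 82 clusters at their annotated starts, and their bodies or pseudogenes another 125. SPNCRNA.570 held 460, 578 and 515 CPM in heat, 25.4, 17.8 and 25.8 in YES, 117 to 147 after H2O2 and 102 to 132 CPM in nitrogen starvation. SPNCRNA.1289, whose start lies inside the gene ubp12 on the other strand, held 149, 160 and 171 CPM in heat and 2.90 to 5.26 in YES. It had 4.77 to 6.38 CPM after H2O2 and 0.152 to 0.366 CPM in starvation, so SPNCRNA.570 was far above YES after H2O2 while the H2O2 and YES libraries of SPNCRNA.1289 overlapped. The cluster that the authors counted for lsd90 lies in the annotated body of SPNCRNA.1480 and held 495, 331 and 338 CPM in heat against 3.69 to 6.81 in YES.

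Of the 590 clusters, 300 (50.8%) had a cluster on the opposite strand that pointed away, with its peak within 500 bp, against 40.02% of all clusters. In 77 such divergent pairs both clusters were heat-induced, at a median distance of 146 bp between the peaks. Where the partner was not heat-induced (140 clusters), its ratio of heat to YES had a median of 2.05, against 0.868 over all clusters.
The internal start of aur1 and SPNCRNA.665 formed such a pair inside the aur1 gene, 134 bp apart. SPNCRNA.665 held 46.9, 65.0 and 48.1 CPM in heat and 0.516, 0.352 and 1.01 in YES, and its heat libraries overlapped those of the aur1 start. In mgr3 the internal start and SPNCRNA.748 lay 133 bp apart and held 21.5 to 30.4 and 14.5 to 22.3 CPM in heat, against at most 0.615 CPM in YES. A pair at a strong mRNA start could be lopsided. The start of tam11 held 2095, 4283 and 2002 CPM in heat, and the partner 212 bp away, counted in imp2, held 2.41, 1.65 and 3.13 CPM in heat and no tags in YES, EMM or H2O2.

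In width the 590 clusters had a median of 192 bp (quartiles 121 and 334.5), against 181 bp over all clusters. The nearest other cluster lay at a median of 215.5 bp, against 249 bp. They made up 4.37%, 4.55% and 4.93% of the clusters on chromosomes I, II and III, and 25 of them (4.24%) lay within 100 kb of a chromosome end, against 2.65% of all clusters.

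GAANNTTC occurred from 250 bases before to 50 after the peak in 161 of the 590 clusters (27.3%) and in 12.5% of all 13003 windows of that length. It is its own reverse complement, so both strands give the same hits. Counted by locus, 140 of 486 loci (28.8%) had it in at least 1 of their windows. All 13003 clusters were not merged into loci, so the 12.5% of single windows is not a like comparison for this share. The share was 18.0% at mRNA starts, against 10.8% of all mRNA starts, and 40.6% in coding exons, against 15.3% of all coding-exon clusters. The other facing order, TTCNNGAA, occurred in 29.8% against 11.98%, and an array of 3 alternating units with 2 bases between neighbours in 4.24% against 0.684%. The array contains both shorter motifs, so these hits overlap.
The GAANNTTC hits were not spread evenly over the window. From 75 to 51 bases before the peak there were 10.0 hits per 100 heat-induced clusters against 1.57 per 100 of all clusters, and from 100 to 76 bases before it 5.25 against 1.23. The motif in cut3, ubx3, ssa1 and SPNCRNA.1289, printed above, begins in or within 2 bases of the former stretch.

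TGACGT, searched on both strands, occurred in 13.9% of the heat-induced clusters against 6.15% of all. At mRNA starts 27.9% had it against 5.99% of all mRNA starts, while in coding exons the shares were 5.59% and 5.82%. From 75 to 51 bases before the peak there were 6.27 hits per 100 clusters against 1.46, where the palindrome counts on each strand. TATAA, searched on the start's strand from 60 to 10 bases before the peak, occurred in 18.0% against 12.8%, and at mRNA starts in 36.9% against 14.5%. TTACGTAA, a sequence that the oxidative stress factor Pap1 can bind, occurred at 7.21% of the heat-induced mRNA starts against 0.474% of all. TTCTTTGTT, bound by the mating regulator Ste11, occurred in 2.71% against 2.10%.

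**Figure D3:**
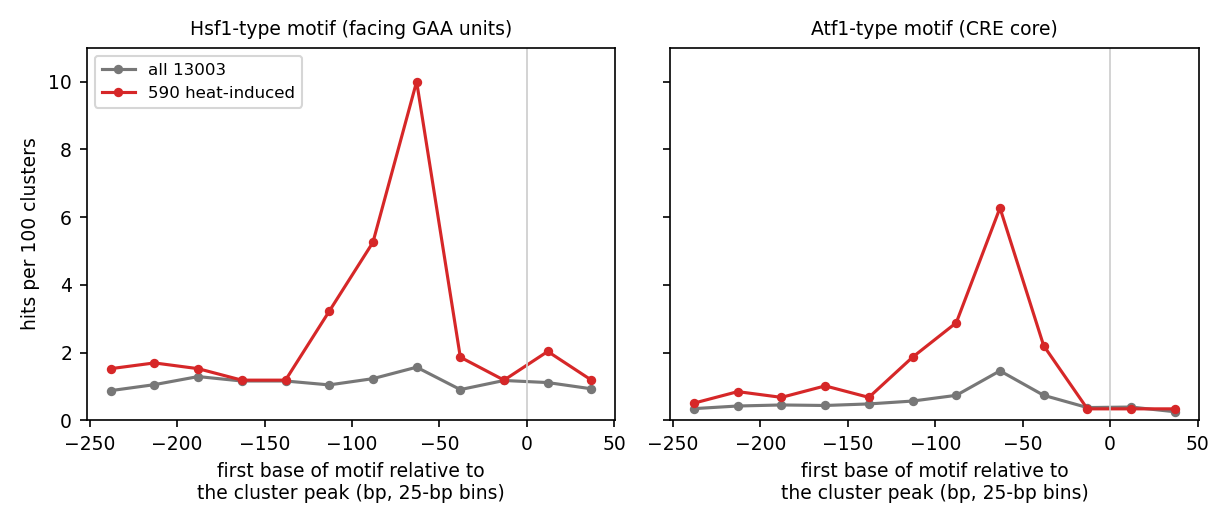
Hits of GAANNTTC (left) and TGACGT (right) per 100 clusters in bins of 25 bases by distance of the motif's first base from the cluster peak, with negative values upstream. Red is the 590 heat-induced clusters and grey all 13003, and red is highest from 75 to 51 bases before the peak, at 10.0 and 6.27 hits per 100 clusters.

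**Figure D4:**
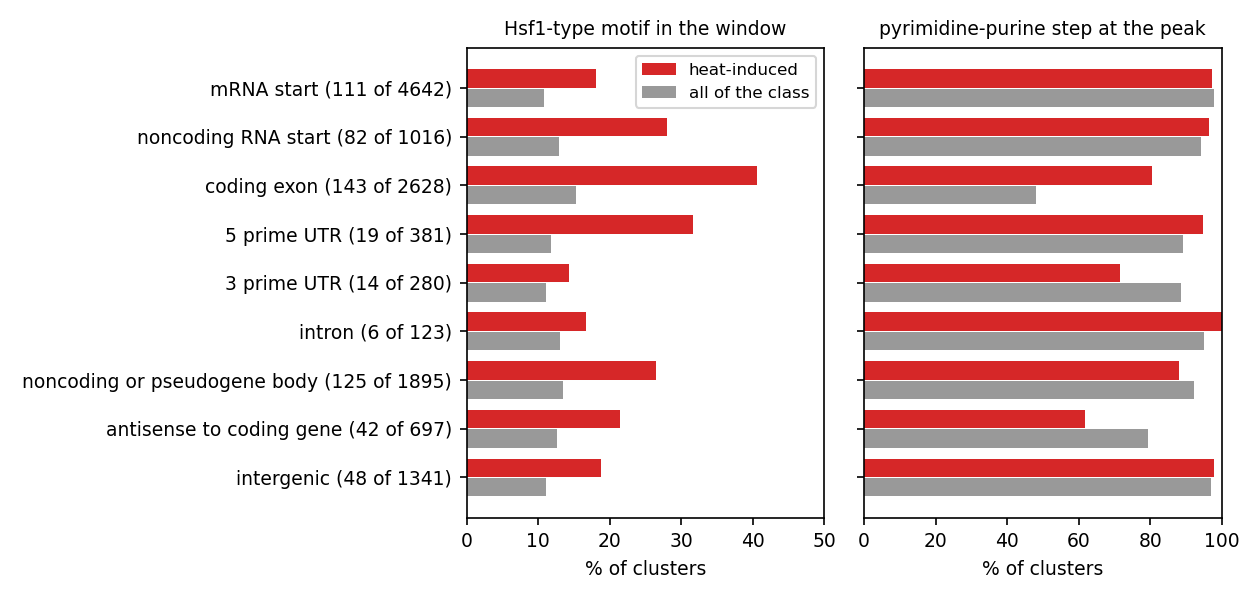
Percentage of clusters with GAANNTTC in the window and with a pyrimidine-purine step at the peak, by annotation class, for heat-induced clusters and for all clusters of the class. Heat-induced coding-exon clusters reach 40.6% and 80.4%, against 15.3% and 48.1% of all coding-exon clusters.

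Nitrogen starvation and EMM took no part in the choice of clusters. They were compared over all 13003 clusters with edgeR's quasi-likelihood test on the counts, with Benjamini-Hochberg adjustment and a threshold of 0.05. Of the 590, 173 were higher in starvation (29.3%), against 36.5% of all clusters, and 150 were lower (25.4%), against 30.3% of all clusters. The other 267 passed in neither direction, and the median log2 change was −0.04 against 0.10 over all clusters. Many of the 590 had few tags in these groups: 273 did not pass the filter on low counts when it was set on the 6 starved and EMM libraries alone. In a fit of those libraries, 154 of the 317 clusters tested were higher (48.6%), against 35.5% of all clusters tested, and 76 were lower (23.97%), against 31.6%, with medians of 0.64 and 0.08. Whether the heat-induced clusters were called higher more or less often than clusters at large thus turned on which of them were tested. The log2 changes are scaled by TMM (trimmed mean of M-values). With library totals alone as the scaling, 217 were higher and 96 lower. The share of higher among the called thus went from 53.6% to 69.3%. Over all clusters the calls moved the same way, from 4752 higher and 3944 lower to 6357 and 2363. The median over all clusters moved from 0.10 to 0.58. CPM values, which use library totals, therefore show more increase in starvation than the log2 changes.

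Of the 111 mRNA starts 64 were higher and 20 lower in starvation, against 27.0% higher and 39.5% lower among all mRNA starts. In the fit of the 6 libraries, 60 of 103 mRNA starts tested were higher and 22 lower, against 22.8% and 41.7% of all. Of the 143 coding-exon clusters 17 were higher (11.9%) and 44 lower (30.8%), against 23.1% and 35.2% of all coding-exon clusters. The fit of the 6 libraries tested 56 of them. There 19.6% were higher and 33.9% lower, against 23.1% and 37.2% of all coding-exon clusters tested, so the shares lay closer together. Of the 42 antisense clusters 4 were higher (9.52%) and 17 lower (40.5%), against 40.5% and 29.6% of all antisense clusters. Only 16 were tested in the fit of the 6 libraries, where 4 were higher (25%) and 8 lower (50%), against 45.0% and 29.1% of all. Of the 48 intergenic clusters 22 were higher (45.8%) and 4 lower (8.33%), against 54.7% and 15.8% of all intergenic clusters. With the 6 libraries, 18 of 30 tested were higher (60%) and 3 lower (10%), against 54.9% and 15.0% of all. Of the 82 noncoding RNA starts 17 were higher (20.7%) and 30 lower (36.6%), against 54.1% and 18.3% of all. That balance turned to 24 and 19 with library totals alone, and to 15 and 6 of 30 tested in the fit of the 6 libraries. Those last shares were 50% and 20%, against 57.0% and 16.7% of all noncoding RNA starts tested. With library totals alone the coding-exon split was 23 higher and 28 lower, and the antisense split 6 and 11. Classes over all clusters were not counted with that scaling.

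The 3 largest increases among clusters of at least 10 CPM in heat were at hry1, SPCC569.09 and hsp3105. hry1 held 21.79, 30.7 and 30.7 CPM in starvation and 0 to 0.055 CPM in EMM, so its fitted log2 change of 8.83 ± 0.46 (SE; edgeR adjusted p = 2.3e-11) rests on few EMM tags. A 3′ UTR cluster counted for SPCC569.09 held 83.6, 93.6 and 108 CPM in starvation and 0.290 to 0.331 in EMM (log2 change 7.72 ± 0.29, edgeR adjusted p = 3.01e-13). hsp3105, of the Hsp31 family of DJ-1-like proteins, held 96.5, 92.4 and 85.3 CPM against 0.275 to 0.530 in EMM (log2 change 7.37 ± 0.27, edgeR adjusted p = 2.72e-13). In all 3, each starved library lay above each EMM library and also above each heat library.
The internal cds1 start rose, with a log2 change of 5.54 ± 0.37 (edgeR adjusted p = 1.71e-09), as did SPNCRNA.570, with 2.55 ± 0.17 (edgeR adjusted p = 7.58e-10). SPBC19C7.04c held 498, 454 and 912 CPM in starvation against 11.6 to 14.4 in EMM, a rise of 5.14 ± 0.25 (edgeR adjusted p = 9.43e-12).

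The largest decrease called among these clusters was antisense to mug35, in a cluster counted for tfg3, a gene of the general transcription machinery. It held 20.4, 28.1 and 22.5 CPM in heat, 0.530, 0.550 and 1.21 in EMM and at most 0.146 CPM in starvation (log2 change −4.06 ± 0.58, edgeR adjusted p = 6.73e-06). SPAC27D7.11c held 202, 299 and 201 CPM in EMM and 21.6, 24.9 and 22.6 in starvation (log2 change −3.83 ± 0.22, edgeR adjusted p = 1.11e-10). It held 34.1 to 40.1 CPM in YES, below every EMM library. The internal start of mug135 had no tags in starvation and 0, 1 and 3 tags in EMM, too few to read a change from.
The internal start of ubx3 fell, with a log2 change of −2.06 ± 0.18 (edgeR adjusted p = 1.67e-08). In SPAC22A12.14c the internal start held 0.292 to 0.504 CPM in starvation and 0.434 to 1.06 in EMM, with overlap, and was called lower (log2 change −1.37 ± 0.34, edgeR adjusted p = 0.00169). Neither it nor the internal start of cut3 passed the filter on the 6 libraries alone. The internal start of cut3 was called lower (log2 change −1.43 ± 0.54, edgeR adjusted p = 0.0268), but not with library totals alone (edgeR adjusted p = 0.116) nor without EMM library 1 or 2 or starved library 1 or 2 (edgeR adjusted p = 0.0678 to 0.165). At aur1 the change of 0.08 ± 0.32 did not pass (edgeR adjusted p = 0.842).

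H2O2 shares the YES control with heat, so H2O2 against YES is described and not tested. The H2O2 mean was at least 2 times the YES mean in 277 of the 590 clusters (46.9%), against 10.8% of all clusters, and the median ratio was 1.77 against 1.01. It reached this at 86 of the 111 mRNA starts (77.5%) and 46 of the 143 coding-exon clusters (32.2%), against 5.23% and 10.1% of all clusters of these classes. The count was 180 when 0.5 CPM was added to both means. The highest ratio among clusters of at least 10 CPM in heat was at srx1, the gene of sulfiredoxin, which repairs oxidised peroxiredoxin. It held 1105, 993 and 1228 CPM after H2O2, 86.6, 48.1 and 51.7 in heat and 13.3, 13.7 and 17.9 in YES. The catalase gene ctt1 held 1986, 1657 and 1874 CPM after H2O2, 594, 475 and 434 in heat and 45.4 to 53.8 in YES. For both, every H2O2 library was above every heat library. A 5′ UTR cluster of ssd2 held 204, 177 and 315 CPM after H2O2, 312, 243 and 340 in heat and 9.76 to 10.2 in YES, and there the H2O2 and heat libraries overlapped.
At the other end, SPBC19C7.04c held 10.9, 9.07 and 8.19 CPM after H2O2 against 16.5, 17.1 and 24.1 in YES, and SPNCRNA.926 held 1.37 to 2.23 against 2.68 to 3.78. In both the H2O2 libraries lay below the YES libraries. An intergenic cluster counted for ppk31 held 0.139 to 0.419 CPM after H2O2 and 0.206 to 0.791 in YES, with overlap.

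H2O2 against EMM shares no library with the choice of clusters, but the medium differs too, and medium and H2O2 cannot be told apart in it. With edgeR's quasi-likelihood test 338 of the 590 were higher (57.3%), against 17.4% of all clusters, and 8 were lower (1.36%), against 14.1% of all clusters. The median log2 difference was 1.497 against 0.01 over all clusters. The unstressed media differed as well: the median ratio of EMM to YES was 0.643 over the 590 and 0.934 over all clusters. When a log2 difference of at least 1 was required in the test, 213 were higher and 4 lower, against 899 and 380 of all 13003 clusters. In a fit of the 6 H2O2 and EMM libraries alone, 283 of 389 tested were higher (72.8%), against 19.4% of all clusters tested. Of the 277 clusters at 2 times YES, 217 were also called higher against EMM. In the fit of the 6 H2O2 and EMM libraries, 196 of 213 such clusters tested were higher (92.0%). Of all clusters at 2 times YES tested there, 80.7% were higher. The log2 difference was 5.64 ± 0.17 for ctt1 (edgeR adjusted p = 5.5e-14), 6.21 ± 0.22 for srx1 (edgeR adjusted p = 2.9e-13) and 3.65 ± 0.16 for rtc3 (edgeR adjusted p = 4.36e-12). SPAC27D7.11c was lower, with a log2 difference of −2.58 ± 0.21 (edgeR adjusted p = 1.8e-08). It held 42.1 to 43.4 CPM after H2O2, 34.1 to 40.1 in YES and 201 to 299 in EMM. Its H2O2 libraries thus lay below every EMM library but above every YES library.

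Clusters that differed after H2O2 also differed in starvation calls and in motifs. Of the 277 clusters at 2 times YES after H2O2, 123 (44.4%) were higher and 45 (16.2%) lower in starvation. Of the other 313, 50 (16.0%) were higher and 105 (33.5%) lower. Over all clusters the same split gave 54.0% higher and 12.4% lower against 34.4% and 32.5%. In the fit of the 6 starved and EMM libraries, 109 of 172 (63.4%) and 45 of 145 (31.0%) heat-induced clusters were higher in the 2 parts. Over all clusters tested in that fit the shares were close to these, 65.4% and 32.7%. TGACGT occurred in 23.8% of the 277 and 5.11% of the 313, and GAANNTTC in 19.1% and 34.5%. Motifs were not counted over all clusters split in this way. By the call in H2O2 against EMM, TGACGT occurred in 19.5% of the 338 higher and 6.35% of the other 252. GAANNTTC occurred in 23.4% and 32.5%. Over all 2257 clusters called higher in that comparison, the shares were 12.2% for TGACGT and 14.6% for GAANNTTC. The fit of the 6 H2O2 and EMM libraries left 201 heat-induced clusters untested for low counts. Motifs were not counted without them. Of the 111 heat-induced mRNA starts, 86 were among the 277 and 91 among the 338. Of the 143 coding-exon clusters these were 46 and 76. TGACGT occurred in 27.9% of those mRNA starts and 5.59% of those coding-exon clusters, and GAANNTTC in 18.0% and 40.6%. The part of annotation class in these motif contrasts was not tested. Heat-induced clusters higher in starvation had TGACGT in 22.5% and GAANNTTC in 13.3%, and those lower in starvation in 6.00% and 29.3%. The lower ones numbered 150 here but 76 in the fit of the 6 libraries. Motifs were not counted over all clusters called in starvation.

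**Figure D5:**
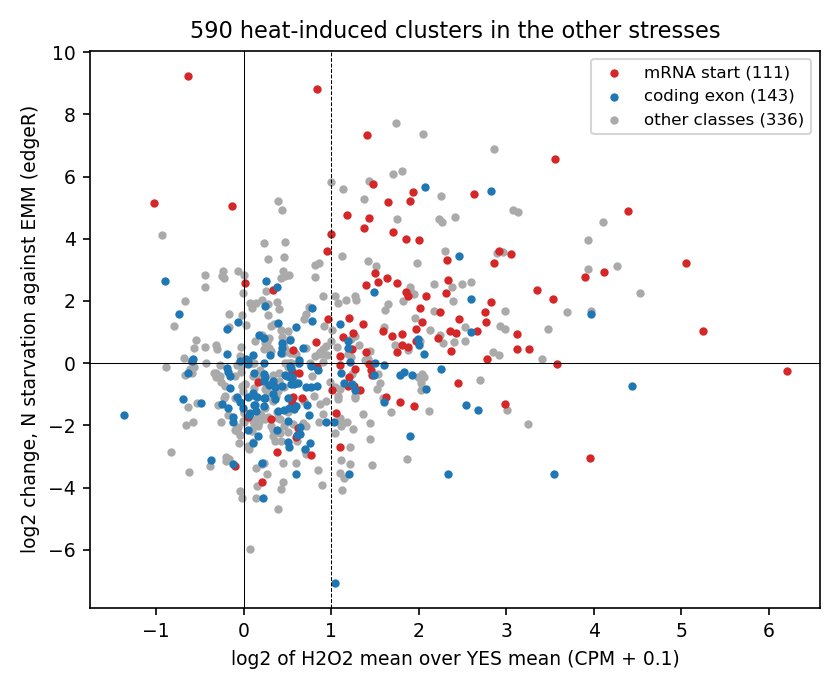
Each of the 590 heat-induced clusters by the log2 ratio of its H2O2 mean to its YES mean, with 0.1 CPM added to both (horizontal axis), and by its log2 change in nitrogen starvation against EMM from edgeR (vertical axis). Red is mRNA starts, blue coding exons and grey the other classes, and the dashed line marks 2 times YES. Of the mRNA starts 64 of 111 were called higher in starvation, against 27.0% of all mRNA starts, and of the coding-exon starts 44 of 143 (30.8%) were called lower, against 35.2% of all coding-exon clusters.

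Genes of the stress pathways were followed in lists, each gene by its most used start. The lists were drawn up with earlier results of these data known, so their counts are not independent evidence. Over all mRNA starts, for comparison, 27.0% were higher and 39.5% lower in starvation, and 10.5% were higher and 21.3% lower after H2O2 against EMM. Of 26 chaperone genes 24 were matched, and in 11 the main start was heat-induced. In starvation 3 of the 24 were higher and 20 lower (14 lower with library totals alone), with a median log2 change of −1.12, and against EMM 10 were higher after H2O2 and 0 lower. hsp16, at 62.0 times YES in heat, held 95.2 to 105 CPM after H2O2 against 58.6 to 77.7 in YES. In starvation it held 33.1 to 38.9 CPM against 24.9 to 37.6 in EMM, which did not pass (edgeR adjusted p = 0.163). The mitochondrial disaggregase gene hsp78 stood at 677, 759 and 680 CPM in heat and 32.1 to 40.2 in YES.
The gene fes1, for a nucleotide exchange factor of Hsp70, stood at 2216, 2112 and 2295 CPM in heat and 166 to 200 in YES, and fell in starvation with a log2 change of −1.27 ± 0.14 (edgeR adjusted p = 4.05e-07). In the starved libraries fes1 held 84.5 to 88.7 CPM against 143 to 163 in EMM, without overlap. ssa1 was higher in starvation, at 160 to 202 CPM against 63.3 to 102 in EMM (log2 change 0.70 ± 0.21, edgeR adjusted p = 0.00699). hsp104 was called lower (log2 change −0.75 ± 0.22, edgeR adjusted p = 0.00606), but not with library totals alone (edgeR adjusted p = 0.224), and its starved libraries at 125 to 193 CPM overlapped EMM at 168 to 188.

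In the core stress list, 13 of 18 genes had a heat-induced main start, 12 were higher and 1 lower in starvation, and 15 were higher and 0 lower after H2O2 against EMM. zym1, which codes for a metallothionein, held 414, 652 and 414 CPM in heat, 36.2 to 42.9 in YES and 86.4 to 121 after H2O2. In starvation it held 925 to 1183 CPM against 10.0 to 17.4 in EMM, a log2 change of 5.77 ± 0.26 (edgeR adjusted p = 3.39e-12), and every starved library lay above every heat library. The trehalase gene ntp1 held 319 to 422 CPM in heat, 165 to 214 after H2O2 and 115 to 119 in starvation against 37.3 to 44.1 in EMM (log2 change 1.04 ± 0.16, edgeR adjusted p = 1.32e-05).
Of 17 oxidative defence genes, srx1 alone had a heat-induced cluster, at 4.15 times YES. Under the limit of 4 lay gst3, tpx1, sod2 and sod1, at 3.97, 3.56, 3.39 and 3.15 times. The others ran from 0.308 (caf5) to 2.84 (trx1). After H2O2 against EMM, 10 of the 17 were higher and 1 lower. The lower one, sod1, had means of 46.0 CPM after H2O2, 18.3 in YES and 601 in EMM. In starvation 4 of the 17 were higher and 7 lower, and the reverse, 7 and 4, with library totals alone. Of 12 ubiquitin and proteasome genes 10 were matched, and the polyubiquitin gene ubi4 had a heat-induced main start, at 64.8, 70.0 and 52.7 CPM in heat and 7.12 to 11.8 in YES. Its starved libraries held 96.5, 222 and 200 CPM against 10.0 to 23.9 in EMM (log2 change 2.90 ± 0.37, edgeR adjusted p = 9.61e-06). In that list 1 gene was higher and 6 lower in starvation (2 and 2 with library totals alone). After H2O2 against EMM, 3 were higher and 0 lower. Of 15 mating and starvation genes, fus1 alone held heat-induced clusters, and 13 were higher and 2 lower in starvation. After H2O2 against EMM, 1 was higher and 6 lower. Of these 6, mei2, ste11, ste6 and mfm2 had H2O2 means at 0.141 to 0.492 times YES. The other 2, gpa1 and isp4, were at 0.835 and 1.02 times YES. The genes lower in starvation were map2 and fus1. fus1 was counted by its coding-exon start, and its call (edgeR adjusted p = 0.00269) was lost with library totals alone (edgeR adjusted p = 0.186), while its 5′ UTR start rose (log2 change 6.10 ± 0.39, edgeR adjusted p = 3.53e-10).

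Some genes of mating and meiosis differed between starvation and EMM. With edgeR's test all 4 M mating type genes were higher, 2 of 4 P mating type genes were higher and 1 (map2) lower, and 5 of 7 matched meiosis genes were higher and 1 (spo6) lower. The sums below are carried mostly by mfm1, map1 and spo5, which had means of 6722, 80.7 and 98.4 CPM in starvation. The summed level of 4 M mating type genes was 1310 to 16246 CPM in the starved libraries, highest in library 3, and at most 13.7 CPM elsewhere. The 4 P mating type genes summed to 97.6 to 103 CPM in starvation and 8.91 to 13.8 elsewhere, and 7 of 8 meiosis genes, those matched, to 126 to 165 CPM and 27.1 to 52.1. None of the matched marker genes had a group mean of 0, and none held a heat-induced cluster. Without starved library 3, 166 of the 590 were higher and 124 lower in starvation, against 4436 and 3617 of all 13003 clusters. The part of the marker genes in the result was not tested.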

How the data were processed

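The authors deposited raw tag counts per start-site cluster and per gene for 15 CAGE libraries, with a list of cluster positions. Per the submitters' processing notes CASAVA 1.6 and Bowtie 0.12.7 were used and the build was ASM294v2; how clusters were drawn and counted is not given in the sources used here, and deposited normalized matrices were not used. No value column was left unmatched (0). Coordinates were checked on the RefSeq assembly ASM294v3: the pyrimidine-purine step lay at 85.1% of the listed peaks, and at 4.71% and 2.84% when shifted by 1 base. CPM was computed from the deposited counts by library totals. A gene's clusters were found as neighbouring clusters whose counts sum to the gene's deposited counts, for 5875 of 5886 genes.

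Counts of all 15 libraries were fitted with edgeR 4.0.16 (limma 3.58.1, R 4.3.3; TMM scaling, quasi-likelihood test), and p-values were adjusted over 13003 clusters, all of which passed edgeR's default filter on low counts over the 15 libraries. Tables were joined with python 3.11.15 and pandas 2.3.3. Alternatives were DESeq2 1.42.0, other scalings, filters and limits, each library left out, and a replicate block. The TTCNNGAA search was added after seeing the data. The members and lists were chosen with earlier results of these data known. Named clusters were the 8 highest in heat, the 4 largest heat to YES ratios above 3 tags, the 2 highest in each class but mRNA starts, the 3 extremes in each direction in starvation and H2O2, the 3 largest gains of share and the 3 strongest divergent pairs, besides list genes and clusters at the limits. The report describes a selection of these. The value of 3 tags in CPM covers counting error only. The labels call the libraries of a group replicate cultures.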

Additional observations from a re-analysis of the deposited data

How the results depend on the processing

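The rule gave 376 clusters with a heat mean of at least 5 CPM and 373 with a ratio of at least 8, against 590, and 700 with TMM scaling, all 590 among them. In starvation 96 clusters were lower with library totals alone, 80 with a minimum log2 change of 1, and 76 when only the 6 libraries compared were fitted, against 150. Over all clusters these settings gave 2363, 1562 and 3834 lower, against 3944. The fit of the 6 libraries tested 317 of the 590, since its filter on low counts used those libraries alone. It called 154 higher (48.6% of those tested, against 35.5% of all clusters tested), against 173 in the fit of all libraries. After H2O2 against EMM, 213 were higher and 4 lower with the minimum log2 change of 1, against 338 and 8. Over all clusters that limit gave 899 and 380, against 2257 and 1827. At least 2 times YES after H2O2 were 180 clusters with 0.5 CPM added, against 277. mRNA starts were 26.1% within 250 bp, divergent partners 64.9% within 1000 bp, and GAANNTTC 17.8% within 100 bases before the peak. With each library left out in turn, membership ran from 567 to 637, starvation from 161 to 176 higher and 122 to 140 lower, H2O2 against EMM from 299 to 334 higher and 6 to 7 lower, and 2 times YES from 273 to 298. DESeq2 gave 173 higher and 139 lower in starvation, and 333 and 7 after H2O2. Replicate numbers did not pair the libraries of the tested comparisons (correlations of deviations 0.02, 0.09 and 0.02 between EMM and starvation, and 0.25, −0.15 and 0.18 between EMM and H2O2); with the number as a block, 173 were higher and 149 lower in starvation, and 333 and 7 after H2O2. Of the values for single named clusters, 1117 kept direction and side of the threshold, 55 lost the call, 17 gained it and 17 changed sign. With library totals alone the starvation log2 change turned to 0.42 at gpd1, 0.22 at srx1, 0.35 at SPNCRNA.926, 0.045 at SPAC26F1.07, 0.27 at tps1, 0.20 at hsp16 and 0.12 at gpx1. With each library left out in turn it ran across 0, from −0.20 to 0.079 at gpd1, −0.067 to 0.35 at smp4, −0.36 to 1.64 at tsp0, −0.18 to 0.29 at aur1 and −0.055 to 1.15 at hsp9, and the H2O2 against EMM difference from −0.0072 to 0.29 antisense to hsp90 and −0.048 to 0.41 at mdj1. The cause of these changes was not tested. Depth limits the weak clusters most: 89 had at most 3 tags in each YES library.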
